A study of Homo sapiens with 14 samples.

Results

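The response of HEK293 cells to HOXD9 was set against their response to HOXD13. HEK293 is an established human embryonic kidney cell line. The comparison used 13 of the 14 arrays of the series: 3 HA vector arrays, 4 HOXD9 lines, 3 V5 vector arrays and 3 HOXD13 lines. HOXD9 was expressed with an HA tag and HOXD13 with a V5 tag, each control carried a vector with the matching tag, and all cells were selected with G418, so every group had passed through transfection and drug selection. The HOX lines were the mixed population (mix) and clones a, b and c for HOXD9, and the mix and clones a and b for HOXD13. The clones were picked from their mix, so the lines of a factor are not independent of each other. The labels name the vector arrays biological replicates without saying how the cultures were kept apart, so a p-value here covers only variation among these arrays, some of it perhaps technical.

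HOXD13 clone c, the 14th array, was left out because of its measured expression, so the set of 13 arrays was chosen on values of this same contrast. The genes called with 13 arrays are therefore a description that depends on that choice. Beside them stand the results with all 14 arrays, in which no array was left out for its values. RAC3, KLHDC7B and PTGER4, the genes that mark the comparison, were likewise picked from this contrast, and their levels are described without a test.

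HOX proteins are homeodomain transcription factors encoded in clusters, and their order along a cluster matches the order in which they are used along the body axis. HOXD9 and HOXD13 both lie toward the posterior end of the HOXD cluster and act in limb and urogenital patterning. They bind related AT-rich DNA motifs. Many HOX proteins bind DNA together with cofactors of the TALE homeodomain class, such as PBX or MEIS, and the partners differ between HOX proteins.

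For each gene, the HOXD9 effect is the mean log2 value of the HOXD9 lines minus that of the HA vectors, and the HOXD13 effect is the mean of the HOXD13 lines minus that of the V5 vectors. The quantity compared is the HOXD9 effect minus the HOXD13 effect, called the difference below. It is higher where HOXD9 lines lie further above their own vector than HOXD13 lines do above theirs. The HA and V5 tag sets were normalized separately, with a 75th percentile of 6.27 for HA arrays and 7.02 for V5 arrays, so levels are compared only within a set. The V5-tagged HOXD13 and the HA-tagged HOXD9 also differ in tag, vector set and normalization set, and these cannot be told apart from the factor.

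Each transgene was seen in the lines that carried its name, but not on every probe set. One HOXD9 probe set read 2.52, 2.83 and 2.82 in the HA vectors and 6.84, 6.70, 6.65 and 7.76 in HOXD9 mix, a, b and c. It lay at the background floor of 2.29 on every array of the V5 set. The other HOXD9 probe set, brighter in the vectors and the one that represents the gene, read 4.21, 4.24 and 4.20 in the HA vectors and 4.33, 4.54, 4.37 and 4.38 in the HOXD9 lines, a HOXD9 effect of 0.19 (limma adjusted p over probe sets = 0.335). One HOXD13 probe set read 6.84, 7.01 and 6.94 in the V5 vectors and 12.32, 12.55 and 12.59 in HOXD13 mix, a and b, against 5.94 to 6.71 across the HA set. HOXD13 clone c read 12.24 on that probe set, just below the other HOXD13 lines. On the probe set that represents HOXD13 as a gene, mix, a and b read 10.15, 10.23 and 10.42, while clone c, at 8.87, lay just below the V5 vectors at 8.93, 8.94 and 8.95. Of the genes listed as HEK293 markers, VIM, KRT8, KRT18 and NEFL were detected, while PAX2, LHX1 and NEFM, at most 4.89, 2.63 and 2.42, did not pass the filter. The defining markers of immune, endothelial, squamous and erythroid cells that the array carries read at most 2.66 on any array. COL1A1 was the only fibroblast marker to be detected, at most 8.12, and the other 6 fibroblast markers read at most 3.65.

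The vector arrays lay close together, with a median SD per gene of 0.05 (log2, n = 3) in both vector groups. The HOXD9 lines spread over a median SD of 0.27 (n = 4) and the 3 HOXD13 lines over 0.12, which becomes 0.26 with clone c included. Within the HOXD9 group, 5 genes lay over 1 log2 unit from the vector mean in the mix, 23 in clone b, 619 in clone a and 1439 in clone c. The HOXD13 mix, a and b had 344, 752 and 1039 such genes, and no vector array had any. The 3′ minus 5′ signal of the ACTB control probe sets, a measure that rises as RNA degrades, was 2.19 to 2.37 in the vectors, 1.70 to 2.35 in the HOXD9 lines, 1.82 to 2.13 in HOXD13 mix, a and b, and 2.80 in clone c.

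Across the 10349 genes tested, the median absolute effect was 0.26 for HOXD9 and 0.29 for HOXD13. The effects had the same sign in 60.6% of genes, and their correlation over genes was weak (Pearson r = 0.307, Spearman rho = 0.307, a description over genes, which share arrays and are not independent). With 13 arrays the difference was called, at an adjusted p under 0.05 in limma, for 1415 genes in the higher direction (13.7%) and 884 in the lower direction (8.54%). With 14 arrays the calls were 840 higher (8.12%) and 157 lower (1.52%), all of them among the genes called with 13 arrays and with the same sign. Without HOXD9 clone c, 3514 genes were called in all. Leaving HOXD13 clone c in kept 59.4% of the higher calls and 17.8% of the lower calls. A call with at least a 2-fold difference was made for 328 higher and 244 lower genes with 13 arrays, and for 226 and 61 with 14. The shifts of the HOXD9 lines did not overlap those of the 3 HOXD13 lines in 4201 genes (40.6%).

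In most of the differences called with 13 arrays, the HOXD13 effect was the larger. Among the 2299 genes, it was the larger in size in 1852 (80.6%) and the HOXD9 effect in 447 (19.4%). Over all tested genes the median absolute effects were close, at 0.29 and 0.26. The 13 arrays leave out the HOXD13 line that widened its group (median SD 0.12, and 0.26 with clone c) but keep every HOXD9 line (0.27). How far the split depends on that choice was not tested. The effects pointed in opposite directions in 1624 (70.6%), which picking genes by the size of the difference favours by itself. Over all tested genes 60.6% had effects of the same sign. Taken alone, the HOXD13 effect was called in 3701 genes (35.8%) and the HOXD9 effect in 1100 (10.6%). The HOXD9 count rests on an estimate of the spread shared by all groups: with 14 arrays it was 1 gene, against 1101 for HOXD13. Leaving out 1 array at a time, the HOXD9 count ran from 2 (without any 1 of the HA vectors) to 4309 (without HOXD9 clone b). Single HOXD9 effects are therefore given below as values, apart from counts of genes called in both effects, and the tests are those of the difference.

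**Figure D1:**
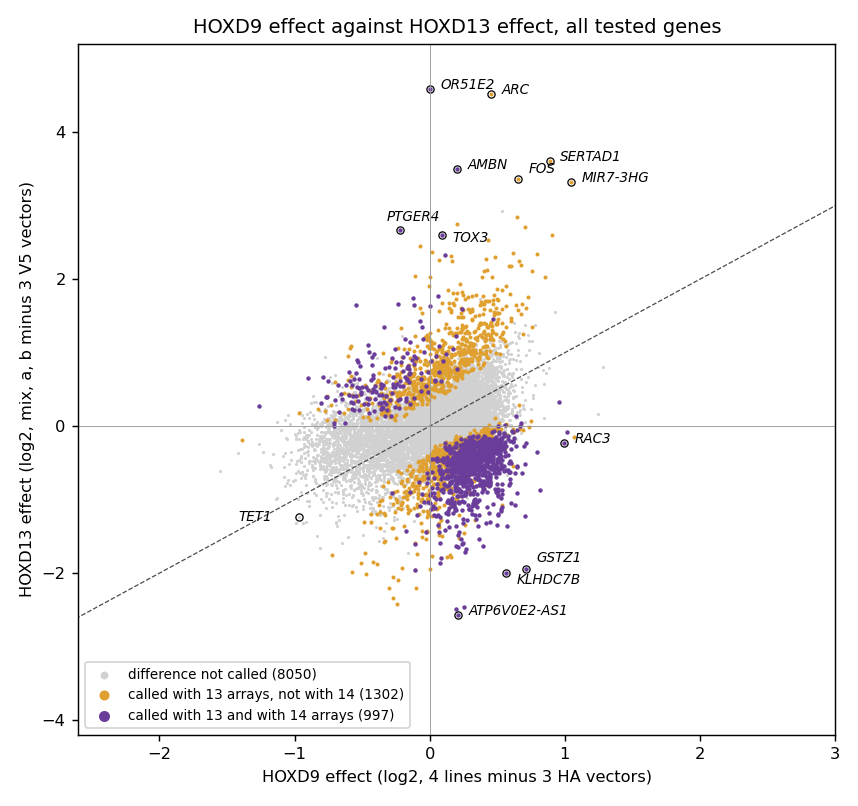
Each point is 1 of the 10349 tested genes, with its HOXD9 effect on the horizontal axis and its HOXD13 effect (mix, a, b) on the vertical axis, both log2; the dashed line marks equal effects. Genes called with both 13 and 14 arrays (997) gather below the line at small positive HOXD9 and negative HOXD13 effects, while most genes high above the line were called only with 13 arrays.

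RAC3 is the marker whose difference came from HOXD9. Its product is a GTPase involved in remodelling of actin filaments. Its log2 values were 8.08, 8.17 and 8.04 in the HA vectors and 9.13, 9.08, 8.90 and 9.24 in HOXD9 mix, a, b and c. The V5 vectors read 9.34, 9.33 and 9.28 and HOXD13 mix, a and b read 8.98, 9.11 and 9.17, with clone c at 8.81. All HOXD9 lines lay above all HA vectors, and all HOXD13 lines, clone c included, lay below all V5 vectors. The HOXD9 effect was 0.99, the HOXD13 effect -0.23, and the difference 1.22 (SE 0.13), a factor of 2.33. With 14 arrays the difference was 1.29.

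KLHDC7B, a gene for a kelch-repeat protein, is the marker with the tightest lines. Its values were 6.06, 5.98 and 5.99 in the HA vectors and 6.66, 6.53, 6.50 and 6.61 in HOXD9 mix, a, b and c. The V5 vectors read 6.17, 6.43 and 6.49 and the HOXD13 lines 4.30, 4.37 and 4.43, with clone c at 4.78. All HOXD9 lines lay above their vectors and all HOXD13 lines below theirs, and the larger part of the difference of 2.56 (SE 0.13) was the HOXD13 effect of -2.00, against 0.56 for HOXD9. Including clone c gave 2.46.

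PTGER4 encodes the EP4 receptor for prostaglandin E2, which signals through cyclic AMP. Its values were 4.95, 4.86 and 4.67 in the HA vectors and 4.84, 4.14, 4.71 and 4.72 in HOXD9 mix, a, b and c, so these groups overlapped. The V5 vectors read 5.94, 6.01 and 6.19 and the HOXD13 lines 8.61, 8.75 and 8.77, with clone c at 8.27. The difference was -2.89 (SE 0.22), made of a HOXD9 effect of -0.22 and a HOXD13 effect of 2.67, and was -2.78 with 14 arrays. PTGER4 is 1 of 6 measured genes of prostaglandin E2 synthesis and reception. It was picked from this contrast, so a count of calls that includes it says nothing about the list. Among the rest, PTGS2, the inducible cyclooxygenase that starts prostaglandin synthesis, was called lower, beside 8.54% of all tested genes. PTGS2 differed by -1.16, and by -1.28 with 14 arrays (limma adjusted p = 0.0492), with clone c 1.50 above the V5 vectors.

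**Figure D2:**
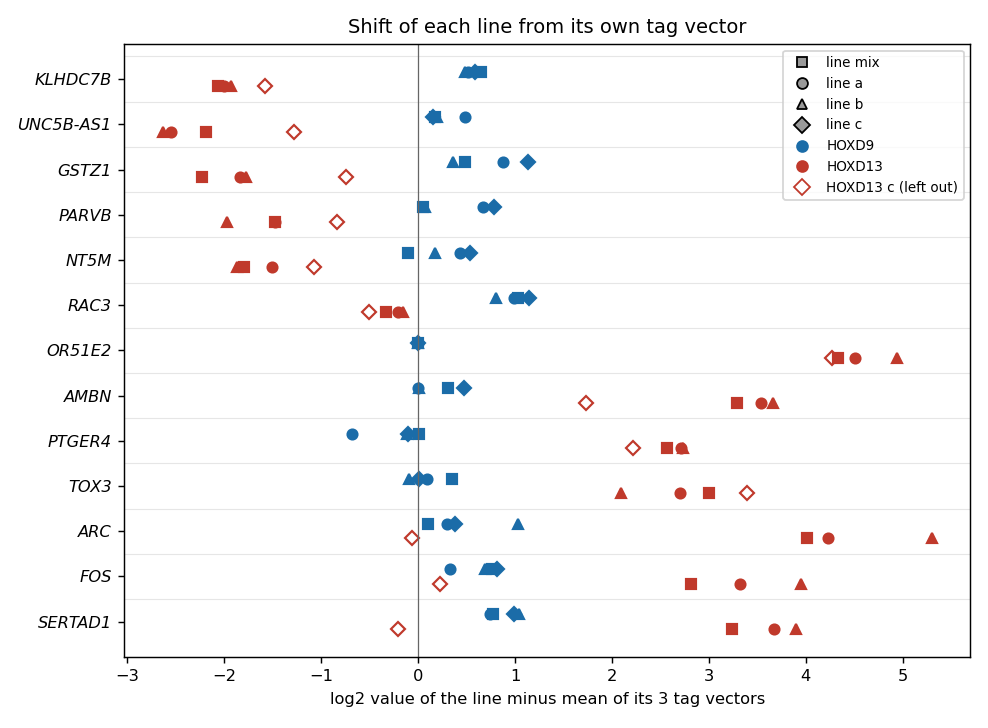
Shift of each HOX line from the mean of its own 3 tag vectors (log2) for 13 genes; filled blue symbols are HOXD9 lines, filled red symbols HOXD13 lines, and the open diamond is HOXD13 clone c, left out of the 13-array contrast. For KLHDC7B, OR51E2, PTGER4 and TOX3 clone c lies near the other HOXD13 lines, while for ARC, FOS and SERTAD1 it lies between -0.21 and 0.23, beside the vectors.

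Promoter sequences are shown because both factors bind DNA: those of the markers KLHDC7B and PTGER4, and those of AMBN and ACTA2, genes called in the lower and the higher direction with both sets of arrays whose windows hold a match to a HOX-type motif. They are the 250 bases upstream of the annotated start, from RefSeq on GRCh38.p14, read 5′ to 3′ on the gene's strand. Capitals mark matches, on either strand, to CAATAAA, to its relative TCGTAAA, or to another relative, CCATAAA, which are AT-rich motifs of the kind that posterior HOX proteins bind and cannot match at the same position of a strand. KLHDC7B lies at chr22:50545649-50545898 on the plus strand, PTGER4 at chr5:40679665-40679914 on the plus strand, AMBN at chr4:70592006-70592255 on the plus strand and ACTA2 at chr10:88991338-88991587 on the minus strand.
KLHDC7B: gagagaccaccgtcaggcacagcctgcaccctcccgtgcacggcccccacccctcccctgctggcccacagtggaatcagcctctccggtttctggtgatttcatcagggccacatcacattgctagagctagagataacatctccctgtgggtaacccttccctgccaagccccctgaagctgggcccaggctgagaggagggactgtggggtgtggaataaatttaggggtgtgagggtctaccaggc
PTGER4: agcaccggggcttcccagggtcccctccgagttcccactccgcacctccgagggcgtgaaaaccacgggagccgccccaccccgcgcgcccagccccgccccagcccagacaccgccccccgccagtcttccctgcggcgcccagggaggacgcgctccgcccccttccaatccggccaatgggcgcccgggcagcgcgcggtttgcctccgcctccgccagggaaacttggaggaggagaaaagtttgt
AMBN: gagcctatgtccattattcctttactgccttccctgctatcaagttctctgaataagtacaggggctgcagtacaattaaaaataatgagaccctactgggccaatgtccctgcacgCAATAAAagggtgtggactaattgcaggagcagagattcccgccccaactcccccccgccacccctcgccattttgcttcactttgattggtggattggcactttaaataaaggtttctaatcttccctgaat
ACTA2: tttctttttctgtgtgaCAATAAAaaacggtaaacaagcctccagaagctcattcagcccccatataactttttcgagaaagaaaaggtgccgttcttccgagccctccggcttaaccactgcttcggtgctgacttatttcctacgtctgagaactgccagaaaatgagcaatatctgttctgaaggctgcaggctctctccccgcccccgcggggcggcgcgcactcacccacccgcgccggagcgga
AMBN held 1 match to CAATAAA, which begins 133 bases before the start, ACTA2 held 1 that begins 233 bases before it, and the windows of KLHDC7B and PTGER4 held none. At least 1 of the motifs occurred in 3.91% of the 8617 tested genes with a promoter in the table, in 4.59% of the 1197 called higher and in 3.19% of the 721 called lower. These shares lie near each other, and a match describes letters and not a bound site.

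The genes with the largest differences in the higher direction were set apart mainly by low values in HOXD13 lines. They were ATP6V0E2-AS1, UNC5B-AS1, DNAH17, GSTZ1, KLHDC7B, SDCBP2-AS1, NCAM1-AS2, SOX21-AS1, PARVB and NT5M, with differences of 2.79 down to 1.98. Their HOXD13 effects ran from -2.57 for ATP6V0E2-AS1 to -1.64 for PARVB and their HOXD9 effects from -0.28 for SOX21-AS1 to 0.71 for GSTZ1. KLHDC7B, UNC5B-AS1 and GSTZ1 also lay above all HA vectors in every HOXD9 line. Of these 10 genes, 5 are named as antisense transcripts, and the array cannot show whether their partner genes contributed signal. UNC5B-AS1 read 7.17, 7.11 and 7.23 in the HA vectors, 7.34, 7.65, 7.37 and 7.31 in the HOXD9 lines, 7.69, 7.23 and 7.43 in the V5 vectors, and 5.26, 4.90 and 4.82 in the HOXD13 lines. The difference of 2.71 (SE 0.20) held with 14 arrays at 2.41 (limma adjusted p = 0.00300), where clone c read 6.17. PARVB, which encodes an integrin-linked adaptor, and NT5M, a mitochondrial nucleotidase, also kept their calls with 14 arrays (limma adjusted p = 0.00859 and 0.00273). SDCBP2-AS1, NCAM1-AS2 and SOX21-AS1 did not (limma adjusted p = 0.220, 0.151 and 0.280), and clone c shifted by 0.21, -0.00 and 0.47 from the V5 vectors. DNAH17, an axonemal dynein heavy chain, differed by 2.68 on its brighter probe set and by 0.51 on the other (limma adjusted p over probe sets = 0.0659).

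GSTZ1 moved in opposite directions under each factor. It encodes an enzyme of tyrosine breakdown. The HA vectors read 6.44, 6.36 and 6.57 and the HOXD9 lines 6.94, 7.33, 6.81 and 7.59, a HOXD9 effect of 0.71. The V5 vectors read 7.44, 7.33 and 7.49 and the HOXD13 lines 5.18, 5.59 and 5.64, a HOXD13 effect of -1.95. The groups of each set did not overlap, and the difference of 2.66 (SE 0.25) was 2.35 with 14 arrays (limma adjusted p = 0.00492). Among the 513 genes, of 10349 tested, whose single effects were both called with 13 arrays, 138 had a positive HOXD9 and a negative HOXD13 effect. In 12 it was the reverse. These counts rest on the HOXD9 calls, of which 1 gene remained with 14 arrays. Ranked by the smaller of both effects, MACROD1 (0.81 and -0.88) came before GSTZ1, and TRAPPC6A (0.70 and -1.22) and UPP1 (0.65 and -0.91) came after it. MACROD1, TRAPPC6A and UPP1 encode a mono-ADP-ribose hydrolase, a vesicle-tethering subunit and uridine phosphorylase, and their differences had limma adjusted p-values of 0.00190, 0.00211 and 0.00139 with 14 arrays.

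The largest differences in the lower direction were genes raised in HOXD13 lines. In order they were OR51E2, ARC, AMBN, PTGER4, SERTAD1, FOS, HSF2BP, SPSB1, TOX3 and TEX14, from -4.59 to -2.35, with HOXD13 effects of 4.59 to 2.37. OR51E2, AMBN, FOS, HSF2BP, SPSB1, TOX3 and TEX14 reached the filter level of 5 only in HOXD13 lines. They were therefore tested only because those lines were high. ARC, at 4.95, 5.09 and 5.06 in the V5 vectors, also passed the filter only with the HOXD13 lines. OR51E2, an olfactory-type receptor, lay at the floor in the HA set, at 2.23 in all 3 vectors and all 4 HOXD9 lines. In the V5 set it was at 2.07 in the vectors and at 6.39, 6.57 and 7.01 in the HOXD13 lines, with clone c at 6.33. The size of such a change over the floor depends on the background model. AMBN, the enamel matrix protein ameloblastin, read 2.38 in each HA vector and 2.69, 2.38, 2.39 and 2.85 in the HOXD9 lines. It read 3.10, 3.30 and 3.30 in the V5 vectors and 6.52, 6.78 and 6.89 in the HOXD13 lines, with clone c between them at 4.96. TOX3, an HMG-box protein, read 4.12, 3.87 and 4.46 in the V5 vectors, 7.15, 6.85 and 6.24 in the HOXD13 lines and 7.54 in clone c, and its 3 probe sets that passed the filter all gave a negative difference. The differences for OR51E2, AMBN and TOX3 were called with 14 arrays (limma adjusted p = 4.38e-08, 0.00527 and 0.00143).

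ARC, SERTAD1, FOS, HSF2BP, SPSB1 and TEX14 lost their calls when clone c was included. ARC, an immediate early gene of neurons, read 4.95, 5.09 and 5.06 in the V5 vectors and 9.04, 9.27 and 10.33 in HOXD13 mix, a and b, but 4.97 in clone c. In the HA set it read 3.86, 3.73 and 3.90 in the vectors and 3.93, 4.13, 4.86 and 4.21 in HOXD9 mix, a, b and c. Its difference was -4.06 (SE 0.40) with 13 arrays and -2.92 with 14 (limma adjusted p = 0.155). SERTAD1, a cell-cycle coregulator, had a HOXD13 effect of 3.61 and a clone c shift of -0.21. FOS, a subunit of the AP-1 transcription factor, had 3.37 and 0.23. With 14 arrays the limma adjusted p of SERTAD1, FOS, HSF2BP, SPSB1 and TEX14 was 0.289, 0.174, 0.0638, 0.173 and 0.173.

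Some genes had their larger effect under HOXD9, and those named here were chosen after their values were seen. Beside RAC3, the HOXD9 effect was the larger for B9D1, a ciliary transition zone protein (0.70 against -0.52), for CAMK1, a calcium and calmodulin-dependent kinase (0.65 against -0.56), and for NAPA, a vesicle fusion factor (0.65 against -0.54). In the lower direction it was the larger for KCTD12 (-0.90 against 0.66), RP2 (-0.79 against 0.68), STK17B (-0.75 against 0.61) and GPC6, a glypican (-0.68 against 0.55). On a second probe set the HOXD13 effect was instead the larger for B9D1 (0.59 against -0.77), NAPA (0.40 against -0.96) and KCTD12 (-0.48 against 0.88), though the difference kept its sign, so a larger HOXD9 effect is not settled for these 3. A call with 14 arrays was a condition for choosing these 7 genes, so it adds no evidence for them. Their limma adjusted p-values with 14 arrays ran from 0.00300 for B9D1 to 0.0445 for STK17B. For all 4 genes in the lower direction, the HOXD9 effect lay mostly in clones a and c. RP2 read 7.33, 7.42 and 7.69 in the HA vectors, 7.17 and 7.19 in HOXD9 mix and b, and 6.15 and 6.27 in a and c. KCTD12 likewise read 9.40 and 9.75 in HOXD9 mix and b, near its HA vectors at 9.81, 9.78 and 9.88, and 8.18 and 8.35 in a and c. STK17B read 7.05 and 7.24 in mix and b and 6.32 and 5.96 in a and c, and GPC6 8.92 and 9.08 against 8.09 and 7.94. DUXAP10 differed by -1.53 on one probe set and 1.38 on another, and TAF15 by 1.32, 0.38 and -0.11 on its 3, so neither has a settled direction.

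Both single effects were called with 13 arrays and positive in 303 of the 10349 genes, and called and negative in 60. These counts too rest on the HOXD9 calls, of which 1 gene remained with 14 arrays. MIR7-3HG, the host transcript of a microRNA, rose by 1.04 under HOXD9 and by 3.33 under HOXD13 with 13 arrays. It read 3.93, 4.63, 4.33 and 3.83 in the HOXD9 lines against 3.29, 3.12 and 3.01 in the HA vectors, and 7.01, 7.82 and 8.34 in the HOXD13 lines against 4.09, 4.51 and 4.59 in the V5 vectors. Clone c, at 4.24, lay among the V5 vectors, and the difference of -2.28 became -1.41 with 14 arrays (limma adjusted p = 0.390). TET1, a DNA demethylation enzyme, fell by 0.97 and by 1.24, and SOS2, a RAS exchange factor, fell by 0.92 and by 1.30. Their differences of 0.27 and 0.38 were not called, and clone c shifted by -0.08 and 0.07. The fall of TET1 was not seen under HOXD13 on its other probe set, which gave effects of -0.61 and 0.15.

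Gene lists of pathways, complexes and cell types are described by their counts and medians, beside 13.7% of all tested genes called higher and 8.54% called lower and a median difference over all genes of 0.02 (0.04 with 14 arrays). With 14 arrays 8.12% of all tested genes were called higher and 1.52% lower, so most lower calls were lost in any list. The lists were chosen with earlier results of these data known. Among HOX genes, 0 of 8 measured HOXB genes were called in limma (1 at an unadjusted p under 0.05). Of 6 HOXC genes 2 were called lower, and so were 2 of 7 HOXD genes, HOXD10 and HOXD13. HOXD13 was read here on the probe set on which clone c lay just below the V5 vectors. Its call was lost with 14 arrays (limma adjusted p = 0.341). HOXC9 read 6.67, 6.65 and 6.70 in the V5 vectors and averaged 8.27 (SD 0.23, n = 3) in the HOXD13 lines, the mix below clones a and b at 8.40 and 8.41, against 5.85 to 6.07 in the HA vectors and 6.03, 6.15, 5.99 and 6.68 in the HOXD9 lines. Its difference was -1.36 (SE 0.23) and stayed called with 14 arrays at -1.18 (limma adjusted p = 0.0237). HOXD10 differed by -0.52 (0.0395 with 14 arrays, same test) on its brightest probe set and by -0.19 and -0.08 on the others. Of the 9 TALE cofactors, PBX2 was called higher with 13 and with 14 arrays (difference 0.66, with effects of 0.39 and -0.27) and PKNOX2 with 13 arrays only.

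The nuclear-encoded subunits of oxidative phosphorylation, the respiratory chain and ATP synthase, and the proteasome, which degrades tagged proteins, had calls in the higher direction only. Of 31 oxidative phosphorylation genes, 10 were called higher and 0 lower (limma; at an unadjusted p under 0.05, 15 and 0), with a median difference of 0.28. Of 26 proteasome genes, 11 were called higher and 0 lower (at an unadjusted p under 0.05, 13 and 0), with a median of 0.36. With 14 arrays 6 and 7 of them were called higher and the medians were 0.33 and 0.35. The median shift of the proteasome list was 0.10, 0.29, 0.02 and 0.25 in HOXD9 mix, a, b and c and -0.19, -0.27, -0.24 and -0.22 in HOXD13 mix, a, b and c. That of the oxidative phosphorylation list was 0.08, 0.16, 0.09 and 0.25 in the HOXD9 lines and -0.12, -0.21, -0.18 and -0.20 in the HOXD13 lines. In these lists every HOXD9 line thus had a positive median and every HOXD13 line a negative one, clone c among them. Over all tested genes the median HOXD9 effect was 0.08 and the median HOXD13 effect -0.03. The medians of HOXD9 mix and b thus lay near or below the level of all genes. A negative median in clone c was not particular to these lists. It was -0.36 for mitochondrial ribosomal proteins and -0.27 for the unfolded protein and ATF4 list, though 0.21 for the prostaglandin genes.

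NDUFV1, a core subunit of complex I, read 10.70, 10.66 and 10.70 in the HA vectors and 10.97, 11.42, 10.98 and 11.22 in the HOXD9 lines, and 11.24, 11.28 and 11.28 in the V5 vectors and 10.93, 10.94 and 11.06 in the HOXD13 lines. Its difference was 0.75 (SE 0.15). PSMB6, a catalytic subunit of the proteasome core, read 11.54, 11.44 and 11.51 in the HA vectors and 11.64, 11.84, 11.60 and 11.97 in the HOXD9 lines, and 12.09, 12.02 and 12.08 in the V5 vectors and 11.59, 11.55 and 11.65 in the HOXD13 lines. Its difference was 0.73 (SE 0.14). Neither gene's groups overlapped within a set, and both were called with 14 arrays (limma adjusted p = 0.0164 and 0.0132). UQCRC1 of complex III and PSMC3 of the regulatory particle differed by 0.73 and 0.69. The cytosolic ribosomal proteins gave no such difference, with 0 of 26 called in limma, 0 at an unadjusted p under 0.05 and a median of 0.01.

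The calls among RAS-MAPK output genes were all in the lower direction and rested on leaving out clone c. Of 21 RAS-MAPK output and immediate early genes, 10 were called lower and 0 higher with 13 arrays, with median effects of 0.14 for HOXD9 and 1.11 for HOXD13. Beside ARC and FOS, the called genes were MYC (-1.85), EGR3 (-1.58), CCND1 (-1.47), DUSP6 (-1.27), EGR1 (-1.21), IER3 (-1.18), IER2 (-1.08) and DUSP4 (-0.65). They encode transcription factors, a D-type cyclin and ERK phosphatases. The median shift of the list was 0.63, 1.19 and 1.46 in HOXD13 mix, a and b, -0.23 in clone c, and 0.05 to 0.39 in the HOXD9 lines. With 14 arrays 0 of the 21 genes were called in limma (4 lower and 0 higher at an unadjusted p under 0.05), and the median difference went from -0.87 to -0.51. Of 15 EGF and FGF family genes, 2 were called higher, ERBB2 and PDGFA, both also with 14 arrays, and 2 lower with 13 arrays only. Of 10 WNT targets, 1 was called higher and 3 lower, and TNFRSF19 stayed called lower with 14 arrays.

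TGF-beta and BMP targets, canonical histones and NOTCH genes followed the same course. Of 17 TGF-beta and BMP targets, 9 were called lower, among them CCN2 (-1.32), ID1 (-1.19), ID2 (-1.01) and SMAD7 (-0.45), and 2 were called higher, INHBE (1.16) and BMP7 (0.59). With 14 arrays INHBE alone was called. All 5 measured canonical histones had a negative difference and 4 were called lower, with a median shift of 1.50, 2.00 and 2.33 in HOXD13 mix, a and b, -0.11 in clone c and 0.09 to 0.79 in the HOXD9 lines. H1-2 read 6.70, 6.71 and 6.77 in the HA vectors, 6.07, 7.13, 6.09 and 7.62 in HOXD9 mix, a, b and c, 6.94, 6.62 and 6.84 in the V5 vectors, 8.30, 8.82 and 9.35 in HOXD13 mix, a and b and 5.83 in clone c. No histone was called with 14 arrays in limma or reached an unadjusted p under 0.05. Of 12 NOTCH genes, 5 were called lower, and JAG1, a NOTCH ligand, was the one called with 14 arrays (difference -1.24, and -1.01 with 14 arrays, limma adjusted p = 0.0381). JAG1 read 8.65, 8.76 and 8.66 in the V5 vectors, 9.70, 9.88 and 10.04 in the HOXD13 lines and 8.97 in clone c.

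**Figure D3:**
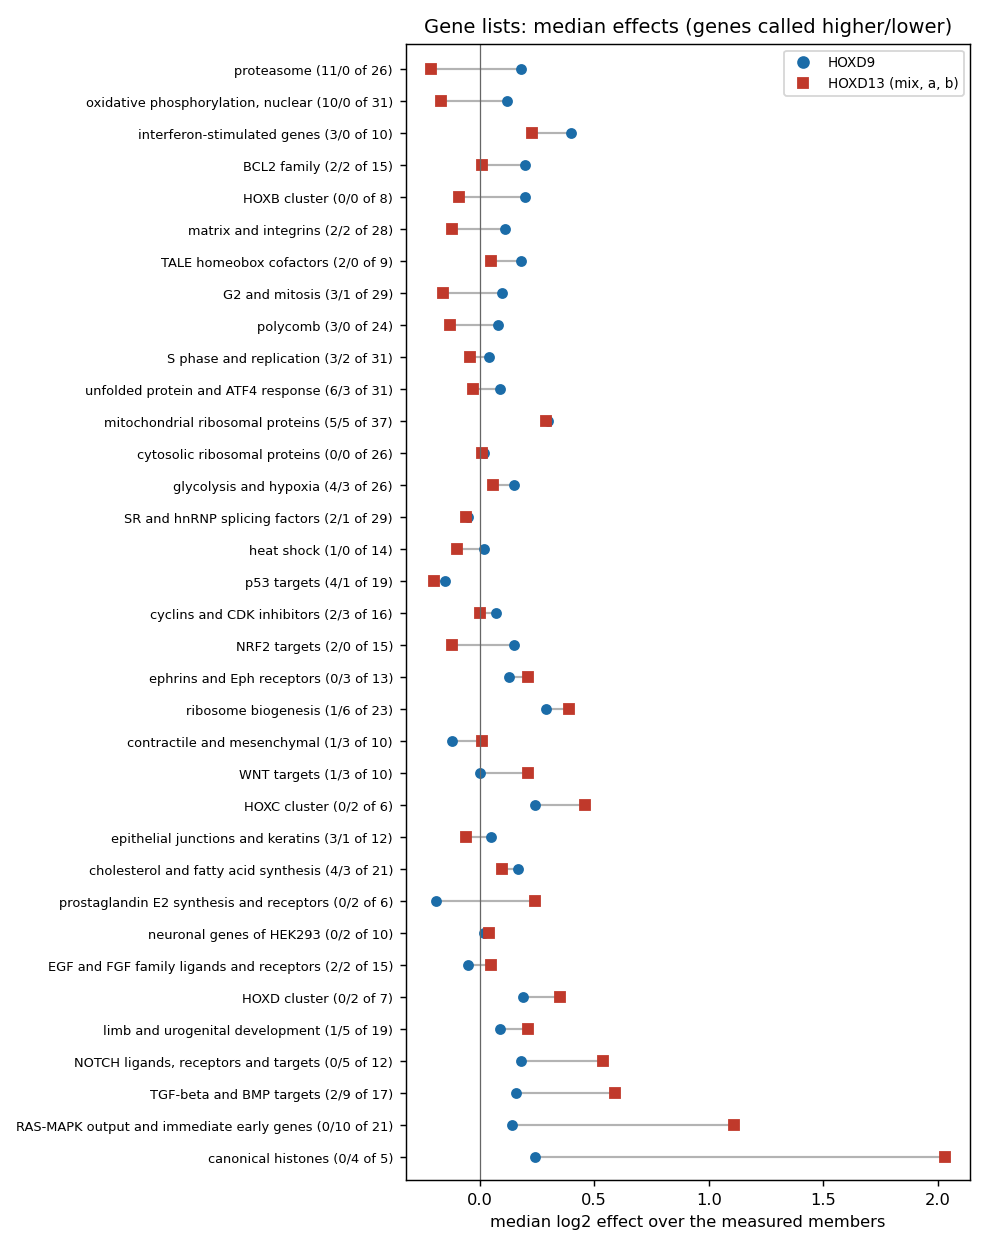
Median HOXD9 effect (blue circle) and median HOXD13 effect of mix, a and b (red square) over the measured members of each list shown, all with at least 5, in log2 units, sorted by the median difference; the label gives the genes called higher and lower with 13 arrays of those measured. The proteasome (0.18 and -0.21) and oxidative phosphorylation (0.12 and -0.17) stand at the top, and RAS-MAPK output (0.14 and 1.11) and canonical histones at the bottom.

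Of limb and urogenital development genes, 5 of 19 were called lower, among them MSX2 (-1.19), BMP2 (-0.98), TBX3 (-0.83) and SOX9 (-0.81), transcription factors and a growth factor of the limb bud. BMP7 was called higher. With 14 arrays 0 of the 19 were called in limma (2 higher and 2 lower at an unadjusted p under 0.05), and clone c shifted by 0.08 for MSX2 and by -0.60 for SOX9. Of 37 mitochondrial ribosomal proteins, 5 were called higher and 5 lower, beside 13.7% and 8.54% of all tested genes. Their median difference was 0.06, and the higher share lay near that of all genes. The 5 lower ones, led by MRPS2 (-1.20) and MRPS12 (-0.97), had HOXD13 effects of 1.60 and 1.42 with clone c at -0.45 and -0.46. Among the higher ones MRPL24 differed by 0.70 and MRPL22 by 0.68, and 4 of these 5 were called with 14 arrays against 0 of the lower ones. Over all tested genes the higher calls were likewise kept more often, at 59.4% against 17.8% of the lower calls.

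Regulators of cell death, cycle and adhesion gave a few larger single differences. BAX, a pro-apoptotic BCL2 family member, read 7.27, 7.09 and 7.22 in the HA vectors and 7.71, 7.50, 7.64 and 7.95 in the HOXD9 lines, and 8.42, 8.39 and 8.54 in the V5 vectors and 7.41, 7.71 and 7.65 in the HOXD13 lines. Its difference was 1.37 (SE 0.17), and 1.34 with 14 arrays (limma adjusted p = 0.00143), with clone c at 7.69. CDC45, a replication helicase factor, differed by 1.28, with effects of 0.49 and -0.78, and was called with 14 arrays. CDKN2B, an inhibitor of CDK4 and CDK6, differed by -1.69. It read 7.36, 7.42 and 7.36 in the V5 vectors, 8.54, 8.73 and 8.91 in the HOXD13 lines and 8.25 in clone c, and was called with 14 arrays (limma adjusted p = 0.00662). MKI67, a proliferation marker, has no settled direction: it differed by -1.14 on its brightest probe set and by 2.69, 1.62 and -0.17 on the others.

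Of 28 matrix and integrin genes, 2 were called higher, 2 lower and 24 not at all, and of 10 contractile and mesenchymal genes 1 was called higher and 3 lower. ACTA2, smooth muscle actin, read 10.28, 10.23 and 10.25 in the HA vectors and 10.43, 10.26, 10.41 and 10.75 in the HOXD9 lines, groups that overlapped. It read 10.60, 10.65 and 10.68 in the V5 vectors, 9.15, 8.91 and 8.92 in the HOXD13 lines and 9.76 in clone c. The difference was 1.86 (SE 0.16), and 1.66 with 14 arrays (limma adjusted p = 0.00338). FN1, the matrix glycoprotein fibronectin, differed by -1.03, with 11.68, 11.63 and 11.65 in the HOXD13 lines and 11.38 in clone c against 10.55, 10.52 and 10.62 in the V5 vectors. Its 4 detected probe sets gave differences of -1.04 to -0.90, and the call held with 14 arrays (limma adjusted p = 0.00747).

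ISG15 (1.61), HERC6 (1.55) and HERC5 (0.57), an interferon-induced ubiquitin-like protein and a pair of interferon-induced HERC-family genes, were called higher of 10 interferon-stimulated genes, and HERC6 alone with 14 arrays (limma adjusted p = 0.0395). In the unfolded protein and ATF4 list, 6 of 31 genes were called higher and 3 lower. TRIB3 (0.93), DDIT3 (0.93), PHGDH (0.83) and INHBE kept their calls with 14 arrays. Heat shock genes gave 1 call of 14, HSPB1 (0.80).

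Gene length moved with each effect but little with the difference. Over tested genes with a RefSeq length, Spearman's rho with length was -0.362 for the HOXD9 effect and -0.214 for the HOXD13 effect, both toward lower values in longer genes, and -0.0379 for the difference. From the shortest to the longest quartile, the median HOXD9 effect was 0.24, 0.13, 0.01 and -0.07 and the median HOXD13 effect 0.12, -0.01, -0.10 and -0.12. The median difference was 0.03, 0.05, 0.03 and -0.04. All 4 HOXD9 lines (rho -0.365 to -0.243) and HOXD13 mix, a and b (-0.246 to -0.152) shared that sign, while clone c had a rho of 0.266, and with it the rho of the difference was -0.148. These are descriptions over genes, and the part of length in any single gene's difference was not tested.

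**Figure D4:**
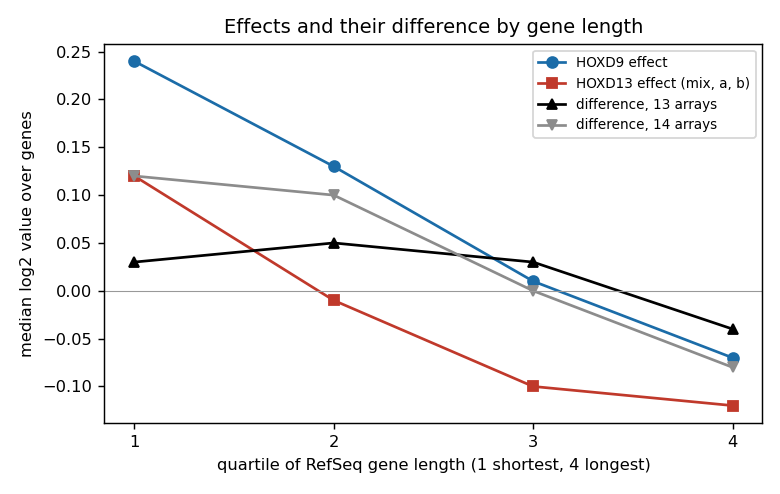
Median log2 value over tested genes in each quartile of RefSeq gene length, for the HOXD9 effect (circles), the HOXD13 effect of mix, a and b (squares) and their difference with 13 arrays (upward triangles) and 14 arrays (downward triangles). Both effects decline with length, and the 13-array difference stays between -0.04 and 0.05.

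Clone c also related to the HOXD9 lines in its own way. Over genes its shifts correlated with those of HOXD9 mix, a, b and c at Pearson r = -0.443, -0.489, -0.0416 and -0.680. HOXD13 mix, a and b correlated with the same lines at 0.106 to 0.395, and these tag sets share no control arrays. UPP1, for which clone c shifted by -1.36, differed by 1.56 with 13 arrays and by 1.67 with 14. At the threshold, TMEM131L and INTS6L were the last genes inside and HDHD2 and MAZ the first outside, with differences of -0.83, -0.46, 0.59 and 0.50.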

How the data were processed

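RNA of each culture was hybridised to 1 Affymetrix array. The authors deposited 1 expression value per probe set on the log2 scale, made with GCRMA per the submitters' processing notes, with the scale read from the values. GCRMA corrects background by probe sequence, equalises the distributions of arrays and summarises probes, and leaves undetected probe sets at a floor near 2. Its version is not given in the sources used here, nor is a date or batch. Arrays have no read depth, and precision is limited by how many there are.

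Of 54675 probe sets, 41097 had 1 gene symbol in the platform annotation, 1801 several and 11777 none listed, and 41043 were updated through RefSeq genes of GRCh38.p14. A probe set had to reach 5 on at least 3 of the 14 arrays. High values in a single group could be enough, as for PTGS2, MIR7-3HG and CCN2, which reached 5 only in HOXD13 lines. Each gene was read by its passing probe set with the highest mean, so 10349 genes were tested. Group means were fitted with lmFit and eBayes of limma 3.58.1 (R 4.3.3, data.table, version 1.17.8; 9 residual degrees of freedom with 13 arrays and 10 with 14), two-sided, with Benjamini-Hochberg adjustment over all genes (or over the 19816 probe sets tested, where said). The code was tested on simulated data. Plots used matplotlib 3.10.9 (Python 3.11.15).

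Named genes were the 3 markers, the 10 largest called differences of at least 1 log2 unit in each direction with no overlap of the lines, the 5 genes called in both effects with equal sign and the 5 with opposite sign that led by the smaller of the effects, and the 2 largest called members of each list. Genes with a larger HOXD9 effect, and any further list members that the text names, were picked with their values in view. The comparison, its members and the 43 lists, of whose 903 entries 660 matched a tested gene, were chosen with earlier results of these data known; 1 of the lists is not reported here. Alternatives covered the arrays used, normalization, centring, filter, probe sets, weights, an RNA-quality covariate, a replicate block and leaving out each array.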

Additional observations from a re-analysis of the deposited data

Results flagged for a closer look

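A value of 1 HOXD9 line stood apart from the other 3 in 6 of the 100 named genes, by a gap beyond the critical value of Dixon's test, which flags about 1 in 20 groups by chance. The HOXD13 lines, at 3, were too few for it. HOXD9 clone c read low for PTGS2, at 2.72 against 3.84, 4.01 and 3.95 in the other lines, for CDKN2B, at 5.48 against 6.32, 6.28 and 6.39, and for ESRP1, at 4.24 against 5.30, 5.37 and 5.40. HOXD9 clone a read high for UNC5B-AS1, at 7.65 against 7.34, 7.37 and 7.31, and for ISG15, at 8.99 against 8.69, 8.67 and 8.70. OR51E2 in HOXD9 clone a was 2.23 like the other 3 lines, and its gap lies below the second decimal, at the floor.

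HOXD13 clone c, which the 13-array contrast does not use, had 333 genes over 1 log2 unit from the mean of the V5 vectors, against 0 in each V5 vector.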

How the results depend on the processing

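The difference was called for 2299 genes with 13 arrays (61.5% higher) and 997 with all 14 (84.3% higher). It was called for 4679 with HOXD9 mix and b as the only HOXD9 lines, and for 1550 (without V5 vector 3) to 3514 (without HOXD9 clone c) when 1 array was left out. Quantile normalization, centring, both filters, the mean of probe sets, array weights, a robust prior and the ACTB covariate gave 1873 to 3135. The HOXD9 effect, at 1100 genes, gave 1 with 14 arrays, 1 with array weights by group, 729 centred, 265 without the filter and 45 with the ACTB covariate, and 2 (without any 1 of the HA vectors) to 4309 (without HOXD9 b) leaving out 1 array. The HOXD13 effect, at 3701 genes (52.9% higher), gave 1101 with 14 arrays (27.1% higher), 6144 with weights and 6703 with HOXD9 mix and b only. The cause of these changes was not tested, apart from the arrays that each setting leaves out or reweights. The line labels mix, a, b and the vector numbers do not pair the samples (r of deviations from group means -0.570 to 0.322). A fit with the label as a replicate block called 2477 genes, 2004 of them among the 2299. Of the 100 named genes, 49 lost their call with 14 arrays and 15 without the filter. MKI67 reversed to 0.75 when its probe sets were averaged. No dates or batches are known for the arrays, so none could be blocked.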
